A study of Homo sapiens with 10 samples.

Results

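The genes described here are those named UQCR, COX4 to COX8 and ATP5, which encode nuclear subunits of respiratory complexes III, IV and V. They were taken by name alone: every named feature of the deposited table whose gene name begins with one of these stems, 42 of 19301 (7 for complex III, 18 for complex IV and 17 for complex V). By function the names hold 33 subunit genes (7, 11 and 15 for the 3 complexes, with COX7A2L counted here), 6 tissue isoforms of complex IV subunits, and 3 genes that share a stem without being subunits. RNA levels had been measured in HEK293FT cells, an established human line of embryonic kidney origin that takes up plasmids easily, into which Gaussia and Cypridina luciferase reporters had been integrated with lentivirus. All 10 libraries came from cells that received dCas9-VP64, a Cas9 without nuclease activity joined to a transcriptional activator; 2 libraries had no guide RNA (CasVP), and each of the guides sgRNA, INT, P4P6 and TOP1 was given in 2 libraries. In every group, 125000 cells per well received 59 ng of the dCas9-VP plasmid, 679.4 ng of carrier DNA and, outside CasVP, 11.6 ng of a U6-driven guide plasmid, delivered with 2.25 uL of Lipofectamine 2000, and RNA was taken after 3 days. The guide TOP1 is not the gene of that name, and the labels do not say how the INT, P4P6 and TOP1 guides differ from the guide called sgRNA. It is not stated that paired libraries are from different cultures, so p-values measure only the spread between these samples. RNA came from whole cultures, so fewer cells with a given RNA and less of it per cell cannot be told apart.

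The respiratory chain sits in the inner mitochondrial membrane and carries electrons to oxygen while it moves protons across the membrane. Complex III, ubiquinol-cytochrome c reductase, hands electrons from ubiquinol to cytochrome c. Complex IV, cytochrome c oxidase, hands them on to oxygen, and complex V, the ATP synthase, uses the proton gradient to make ATP. Each complex joins products of mitochondrial DNA, among them the catalytic core of complex IV, to nuclear-encoded subunits that are made in the cytosol and imported. Several nuclear subunits of complex IV have a second gene used in particular tissues: COX4I2 in lung, COX6A2 and COX7A1 in heart and skeletal muscle, and COX6B2, COX7B2 and COX8C in testis. Gene names are given as the deposited table has them, although many have since changed: ATP5F1, the b subunit of the stator stalk, is now ATP5PB, ATP5C1 is ATP5F1C, UQCR is UQCR11 and COX4NB is EMC8. The mitochondrially encoded subunits were not analysed here.

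Levels are read as FPKM, fragments per kilobase of transcript scaled to the size of the library, so that genes can be set side by side. How libraries were scaled and how length was corrected for short transcripts is not given in the sources used here. Several of these genes have short ones, down to a median of 314.5 bases for ATP5J2 in GENCODE v29. All 33 subunit genes were well expressed: 6 had a mean over the 10 libraries of at least 500 FPKM, 21 lay between 100 and 500 FPKM and 6 below 100 FPKM, where the median of all tested features was 14.4 FPKM. Complex III subunits had a median of 76.3 FPKM and ranged 10.7-fold, from UQCRB at 50.3 to UQCRH at 539 FPKM. For complex IV the median was 339 FPKM and the range 14.5-fold, from COX7A2L at 67.7 to COX7C at 981 FPKM. Complex V had a median of 269 FPKM and a range of 11.7-fold, from ATP5D at 53.1 to ATP5E at 623 FPKM. ATP5D and ATP5E, at the ends of that range, encode neighbouring subunits of the central stalk. The 3 genes that only share a stem were lower: COX4NB, whose product belongs to the endoplasmic reticulum membrane complex, averaged 25.8 FPKM, ATP5SL 29.3 FPKM and ATP5S, also called coupling factor B, 10.4 FPKM. These levels are uncertain where near-identical copies exist: 26 of the 42 genes have at least 1 named RefSeq pseudogene, 121 in all and 18 for COX6C, and how the authors assigned reads that match several places is not given in the sources used here. The values for ATP5O, ATP5J2 and COX6B2 belong to features that also name CRYZL1 and DONSON, PTCD1, and FAM71E2.

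**Figure D1:**
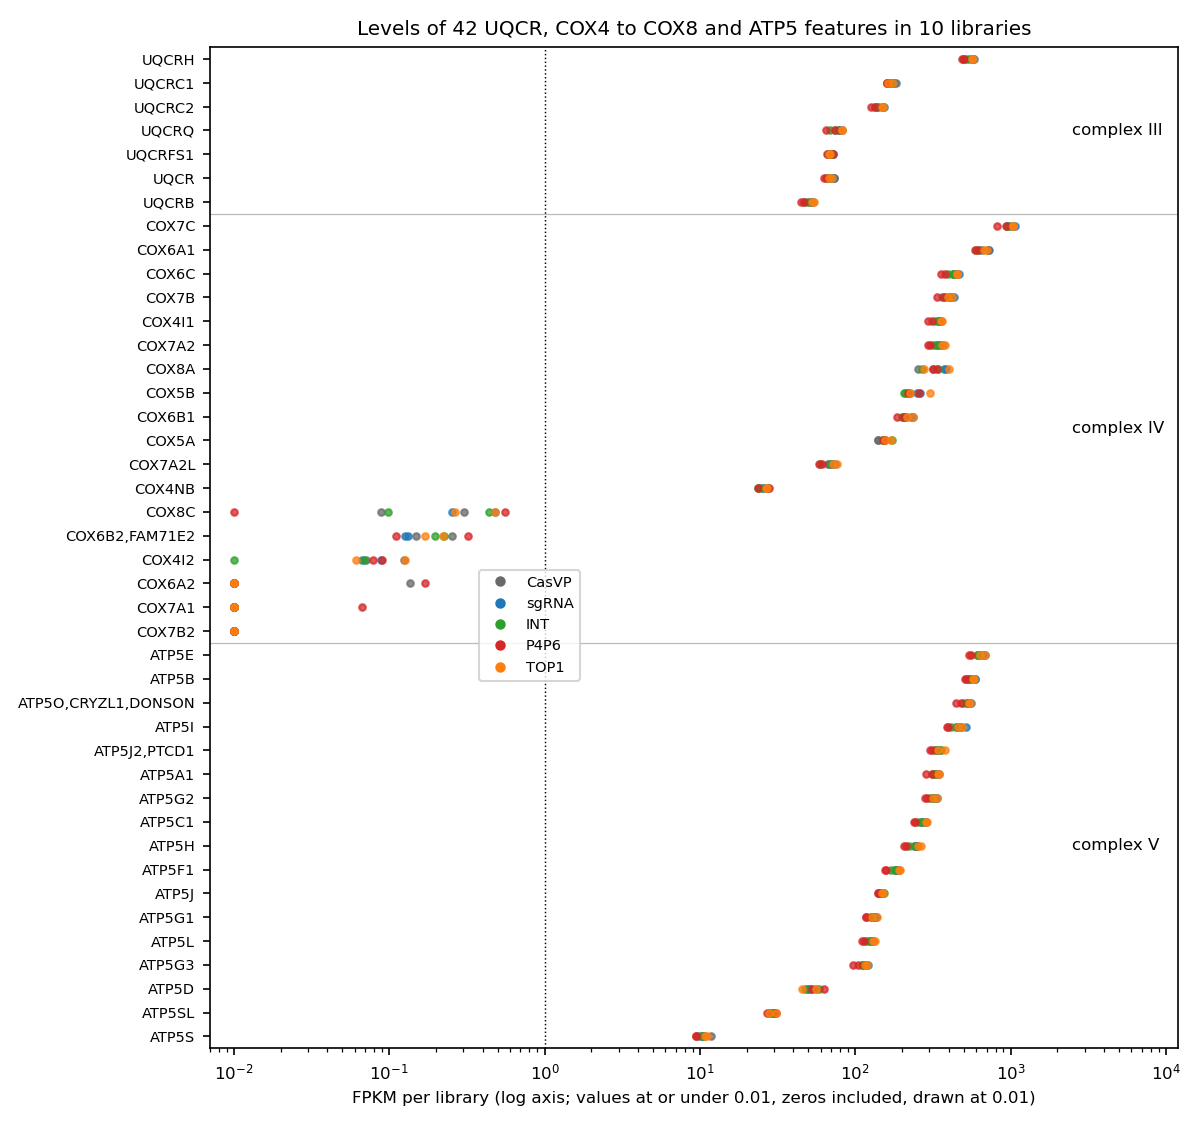
FPKM of each of the 42 features (rows, by complex) in each of the 10 libraries (points, coloured by group) on a log axis. The 33 subunit genes lie between 44.7 FPKM (UQCRB) and 1061 FPKM (COX7C) in every library, and the 6 tissue isoforms of complex IV lie below the dotted line at 1 FPKM.

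Of each pair of complex IV isoforms, the widely expressed gene supplied nearly all of the RNA. COX4I1 stood at 312 and 292 FPKM with P4P6, 356 and 350.3 with sgRNA, 358 and 360.4 with TOP1, 342 and 325 with INT and 348 and 347 in CasVP, and COX4I2 never exceeded 0.126 FPKM, so that COX4I1 made up at least 99.96% of their sum in every library. COX6A1, at 662 FPKM on average, made up at least 99.97% of its pair, and COX6A2 was listed at 0 in all but CasVP library 0 and P4P6 library 1, where it reached 0.170 FPKM at most. COX6B1, whose product lies on the intermembrane-space side, stood at 186 and 207 FPKM with P4P6, 212 and 235 with sgRNA, 216 and 234 with TOP1, 204 and 202 with INT and 207 and 228 in CasVP. Its testis isoform COX6B2 lay between 0.111 and 0.321 FPKM, at most 0.172% of the pair. COX7B (392 FPKM on average) had no measurable partner, since COX7B2 was listed at 0 in every library, and COX7A1 was listed at 0 in all but P4P6 library 1 (0.0671 FPKM). COX8C, the testis form of subunit COX8A, was the least rare of these 6, with 0.0891 and 0.301 FPKM in CasVP, 0.254 and 0.478 with sgRNA, 0.0977 and 0.436 with INT, 0 and 0.556 with P4P6 and 0.265 and 0.477 with TOP1. Its groups overlapped. All 6 tissue isoforms had a mean below 1 FPKM and were not tested; the testis markers PRM1 and TNP1 were likewise at 0 in all libraries, and of the muscle markers, MYH7 and CKM did not exceed 0.0107 and 0.225 FPKM while ACTN2 averaged 2.61 FPKM.

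Sets of genes that share a function in the same cell kept similar proportions in all libraries. COX7A2 and COX7A2L, a relative of COX7A2 that takes part in joining complexes III and IV into supercomplexes, divided their summed FPKM at 82.9 to 84.2% for COX7A2 and 15.8 to 17.1% for COX7A2L over the 10 libraries. The c subunit, the proton-carrying ring of ATP synthase, is encoded by ATP5G1, ATP5G2 and ATP5G3, which give the same mature protein. ATP5G2 supplied 56.0 to 57.4% of their summed FPKM, ATP5G1 22.2 to 23.9% and ATP5G3 19.2 to 20.7%. No group stood apart in these shares: P4P6 library 0 had the lowest share of ATP5G3 and the highest of ATP5G2, and P4P6 library 1 the lowest share of ATP5G2. UQCRHL and ATP5L2, the retained copies of UQCRH and ATP5L, were not analysed here.

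Promoter sequences of 33 of the 42 genes were found in RefSeq (GRCh38.p14), as windows from 250 bases before to 50 bases after each start. They are shown because NRF1 and the ETS-family factor GABP (NRF-2) are textbook regulators of respiratory genes. The part of these motifs in the differences between libraries was not tested. A GABP-type ETS core, CCGGAAG, searched on both strands, occurred in 14 of 33 genes (42.4%), against 12.2% of the 27305 genes with a promoter in the table. The NRF1 motif, the arms GCGCA and GCGC with any 1 base between them, occurred in 7 of 33 (21.2%) against 6.98%. At least one of these 2 motifs was present in 19 of 33 (57.6%) against 17.6%. By complex as named this was 5 of 6 genes of complex III, 7 of 15 of complex IV and 7 of 12 of complex V. The 27305 genes were not limited to those expressed in these cells, while 29 of the 33 averaged at least 1 FPKM here. No share for expressed genes alone was taken. The YY1 motif AANATGGCG was found in 4 genes (12.1% against 3.85%) and the Sp1 motif GGGGCGGGG in 4 (12.1% against 18.5%); each string was searched on both strands and on its own, so a match may share bases with a match of another. Stretches of 150 bases around the starts of 5 genes follow, each ending 25 bases past the start, chosen to show ETS, NRF1 and YY1 matches and a gene with none, with matches in capitals (CTTCCGG is the ETS core read from the other strand).
UQCRH: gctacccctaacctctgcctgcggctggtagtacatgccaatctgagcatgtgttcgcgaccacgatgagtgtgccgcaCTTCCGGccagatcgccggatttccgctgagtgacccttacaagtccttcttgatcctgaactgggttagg
COX4I1: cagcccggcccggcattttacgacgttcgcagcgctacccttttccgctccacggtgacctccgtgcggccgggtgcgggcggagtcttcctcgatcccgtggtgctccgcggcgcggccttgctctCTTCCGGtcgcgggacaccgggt
COX6A1: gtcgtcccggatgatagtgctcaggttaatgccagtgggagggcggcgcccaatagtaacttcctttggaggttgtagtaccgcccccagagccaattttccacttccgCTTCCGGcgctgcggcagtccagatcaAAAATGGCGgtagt
ATP5C1: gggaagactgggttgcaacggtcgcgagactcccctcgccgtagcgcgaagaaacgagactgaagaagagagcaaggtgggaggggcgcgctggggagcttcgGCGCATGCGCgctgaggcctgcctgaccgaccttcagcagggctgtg
COX5A: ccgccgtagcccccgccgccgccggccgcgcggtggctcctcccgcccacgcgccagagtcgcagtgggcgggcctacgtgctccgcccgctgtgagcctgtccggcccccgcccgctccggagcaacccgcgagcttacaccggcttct
The windows lie at chr1:46303573-46303722, plus strand (UQCRH), chr16:85799570-85799719, plus strand (COX4I1), chr12:120437988-120438137, plus strand (COX6A1), chr10:7788052-7788201, plus strand (ATP5C1) and chr15:74938049-74938198, minus strand (COX5A), all in GRCh38.p14. UQCRH, COX4I1 and COX6A1 hold an ETS core that starts at position -46, 3 and -16 from the start of the gene. ATP5C1 holds an NRF1 motif at -22, COX6A1 also holds a YY1 motif at 12, and COX5A holds none of these 4 strings in its 300-base window. COX4I1 and COX4NB start 151 bases apart on opposite strands, so that their windows share 250 bases. The ETS core of COX4I1 lies in that shared stretch and is the same site that was counted for COX4NB. A match to these letters is a description of the sequence and not a shown binding site.

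Every pair of groups was compared, for all 11574 named features with a mean of at least 1 FPKM, with limma on log2(FPKM + 1) in one fit of all libraries; 36 of the 42 genes were tested, 7, 12 and 17 for complexes III, IV and V. Log2 differences below are on that scale, and a gene passed at a Benjamini-Hochberg adjusted p under 0.05 over all tested features. Relative sequencing depth, estimated from the steps of low values and set to 1.0 for CasVP library 0, ran from 0.694 in P4P6 library 0 to 1.02 in TOP1 library 0. The upper quartile of FPKM was between 17.3 and 17.7 in every library, while summed FPKM was lowest in P4P6 (540085 and 522550) and highest in sgRNA and TOP1 (587132 to 598372). Of 8 genes typical of HEK293 cells, 7 averaged at least 1 FPKM (LIN28B 24.9), and the blood markers PTPRC and CD3E did not exceed 0.0499 FPKM. Pairs of libraries allow no exact permutation p under 0.333, so single values were not tested in that way.

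With P4P6, RNAs of all 3 complexes were lower than with sgRNA. Lower calls covered 21 of 36 genes, and no gene was called higher. By name these were 4 of 7 for complex III, 6 of 12 for complex IV and 11 of 17 for complex V. All 21 were subunit genes, 63.6% of the 33, so that subunits alone gave 6 of 11 for complex IV and 11 of 15 for complex V. Of all tested features, 7.17% were lower, 4.33% higher and 11.5% changed in either direction. The median log2 difference of the 36 was -0.21, against -0.01 over all tested features, and 35 of 36 estimates were below 0 (52.4% of all tested features). Against TOP1 the picture was alike: 23 genes fell (4, 6 and 13 by complex as named) and none rose. All 23 were subunit genes, 69.7% of the 33. Of all tested features, 11.4% were lower, 8.61% higher and 20.0% changed in either direction. There the median was -0.20, against -0.01 over all tested features, and 34 of 36 estimates were below 0 (53.2% of all tested features). Both P4P6 libraries lay below both sgRNA libraries in 30 of the 36 genes and below both TOP1 libraries in 30, as in 30.6 and 32.5% of all tested features. The lower calls in both comparisons were shared by 20 genes, 95.2% of the list against sgRNA and 87.0% of that against TOP1, which share the P4P6 libraries. COX7B was called only against sgRNA, and COX6A1, ATP5G1 and ATP5J2 only against TOP1. The difference between these comparisons is that of TOP1 against sgRNA, in which limma called 0 of the 36 genes, 0 had an unadjusted p under 0.05 (1.68% of all tested features), 18 estimates were below 0 (48.6%), and 0.00864% of all tested features changed. Against sgRNA, the smallest of these changes was in ATP5L, whose mean FPKM fell by 12.6%, and the largest in ATP5I, which fell by 21.2%.

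Both sets of calls depended on single libraries and on the scaling. Against sgRNA, the 21 calls became 0 without P4P6 library 1, without either sgRNA library, with only the libraries of the groups compared, or under quantile normalization, and 8 without either CasVP library; against TOP1, the 23 became 4 without TOP1 library 0, 7 without TOP1 library 1, 0 with only the groups compared and 1 under quantile normalization. Over all features the lower and higher calls against sgRNA, 830 and 501, became 637 and 557 with median-of-ratios rescaling and 90 and 298 under quantile normalization; against TOP1, 1322 and 996 became 1119 and 1130, and 415 and 767.

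**Figure D2:**
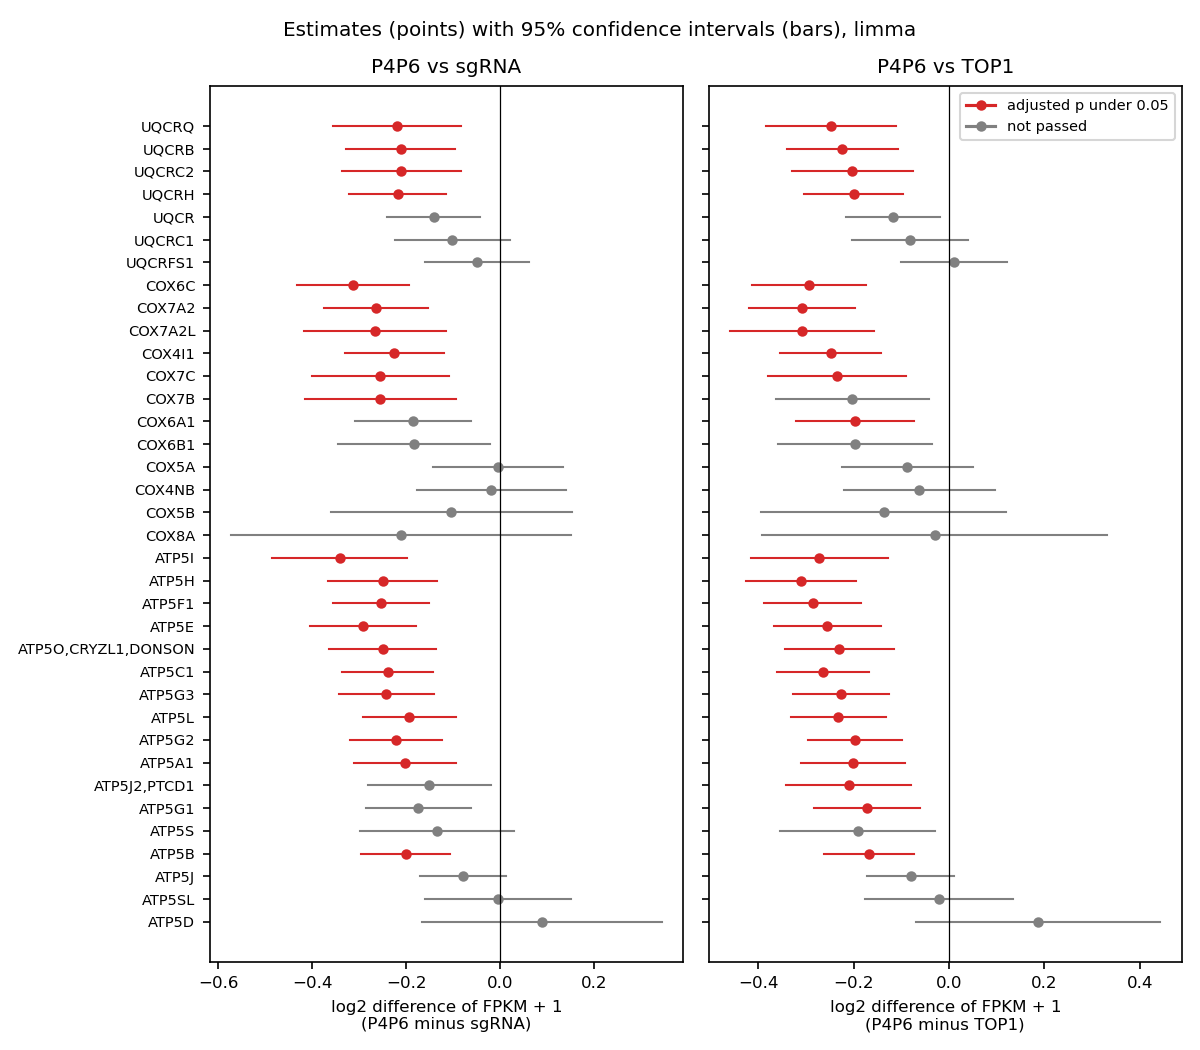
Log2 differences of FPKM + 1 (points) with 95% confidence intervals (bars) for the 36 tested genes, ordered by complex, for P4P6 minus sgRNA and P4P6 minus TOP1; red marks an adjusted p under 0.05 in limma. Of the 36 estimates, 35 lie below 0 against sgRNA and 34 against TOP1. UQCRFS1, COX5A, COX8A, COX4NB, ATP5SL and ATP5D lie nearest to or above 0 in 1 panel or both.

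In complex III, the 4 lower genes were UQCRH, UQCRQ, UQCRB and UQCRC2. UQCRH, the hinge protein that helps cytochrome c dock, stood at 486 and 504 FPKM with P4P6, 570.2 and 581 with sgRNA, 565 and 572 with TOP1, 515 and 496 with INT and 537 and 565 in CasVP. Both P4P6 libraries were below both sgRNA and both TOP1 libraries, while INT overlapped P4P6, and the log2 difference was -0.22 (SE 0.05, adjusted p = 0.0253) against sgRNA and -0.20 (SE 0.05, adjusted p = 0.0186) against TOP1. UQCRB, which contributes to ubiquinone binding, stood at 44.7 and 46.9 FPKM with P4P6, 53.4 and 53.0 with sgRNA, 54.2 and 53.0 with TOP1, 50.8 and 47.1 with INT and 48.6 and 51.4 in CasVP. UQCRC2, a core protein, stood at 127 and 134 FPKM with P4P6, 153 and 149 with sgRNA, 149 and 151 with TOP1, 152 and 135 with INT and 139 and 138 in CasVP. In both genes the P4P6 libraries were the 2 lowest of 10. UQCRQ, another small subunit, stood at 73.6 and 64.7 FPKM with P4P6, 81.8 and 79.3 with sgRNA, 82.1 and 82.1 with TOP1, 73.7 and 68.5 with INT and 78.7 and 79.1 in CasVP; here P4P6 library 0 lay among the INT libraries. The remaining 3 genes did not pass. UQCR stood at 65.2 and 63.0 FPKM with P4P6, 69.6 and 72.0 with sgRNA, 68.0 and 71.3 with TOP1, 66.9 and 68.1 with INT and 72.5 and 72.7 in CasVP, with estimates of -0.14 and -0.12, and its P4P6 libraries too were the 2 lowest. UQCRC1, the other core protein, gave -0.10 and -0.08. UQCRFS1, the Rieske iron-sulfur protein that takes electrons from ubiquinol, lay between 66.3 and 71.4 FPKM in all libraries, with the sgRNA libraries between the 2 P4P6 libraries, and gave estimates of -0.05 (95% interval -0.16 to 0.06) and 0.01 (-0.10 to 0.12). UQCRFS1 therefore showed no change beyond its error where 4 of its partners were lower. Whether it differed from them was not tested.

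In complex IV, the largest estimate against sgRNA was that of COX6C, a small membrane subunit. It stood at 379.6 and 355 FPKM with P4P6, 447 and 465 with sgRNA, 449 and 452 with TOP1, 429 and 397 with INT and 439 and 423 in CasVP, and the P4P6 libraries were the 2 lowest of 10. The log2 difference was -0.31 (SE 0.05, adjusted p = 0.0231) against sgRNA and -0.29 (SE 0.05, adjusted p = 0.0108) against TOP1. COX7A2 stood at 303 and 296 FPKM with P4P6, 366 and 352 with sgRNA, 379 and 362 with TOP1, 338 and 317 with INT and 332 and 346 in CasVP. Its log2 difference was -0.26 (SE 0.05, adjusted p = 0.0241) and -0.31 (SE 0.05, adjusted p = 0.0101), and its relative COX7A2L, at 58.7 and 61.2 FPKM with P4P6, 73.6 and 70.9 with sgRNA, 76.8 and 72.1 with TOP1, 69.3 and 59.4 with INT and 67.1 and 68.1 in CasVP, gave -0.27 and -0.31. P4P6 was lowest in COX7A2, while P4P6 and INT library 1 overlapped in COX7A2L. COX4I1, the largest nuclear subunit, gave -0.22 and -0.25 and had its lowest 2 libraries in P4P6. COX7C, the most abundant of these RNAs, stood at 822 and 939 FPKM with P4P6, 1036 and 1061 with sgRNA, 1039 and 1029.9 with TOP1, 1021 and 953 with INT and 942 and 971 in CasVP. Its P4P6 libraries lay further apart than those of any other group and were still the 2 lowest. COX7B stood at 334 and 375 FPKM with P4P6, 413 and 432 with sgRNA, 395 and 421 with TOP1, 401 and 380.4 with INT and 363 and 409 in CasVP, with P4P6 library 1 between the CasVP libraries; it was called against sgRNA (-0.25 (SE 0.07, adjusted p = 0.0492)) and not against TOP1 (-0.20 (SE 0.07, adjusted p = 0.0741)). COX6A1 stood at 614 and 587 FPKM with P4P6, 654 and 713 with sgRNA, 673 and 704 with TOP1, 599.6 and 630.0 with INT and 720.4 and 723 in CasVP. It was highest in CasVP, overlapped between P4P6 and INT, and was called against TOP1 (-0.20 (SE 0.06, adjusted p = 0.0345)) and not against sgRNA (-0.18 (SE 0.06, adjusted p = 0.0582)).

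Of the other subunits of complex IV, none passed. COX6B1 gave -0.18 and -0.20. COX5A, at 152 and 154 FPKM with P4P6, 154 and 153 with sgRNA, 169 and 156 with TOP1, 172 and 151 with INT and 141 and 140.3 in CasVP, was lowest in CasVP. COX5B, which binds zinc at the matrix side, stood at 218 and 258 FPKM with P4P6, 259.6 and 249.5 with sgRNA, 301 and 225 with TOP1, 205 and 209.9 with INT and 217 and 227 in CasVP, and its highest library, TOP1 library 0, was well above TOP1 library 1. COX8A stood at 316 and 335 FPKM with P4P6, 372 and 382 with sgRNA, 399 and 277 with TOP1, 268 and 339 with INT and 253 and 318 in CasVP. Both P4P6 libraries lay below both sgRNA libraries and within the range of TOP1, with estimates of -0.21 and -0.03. COX8A varied most of all 36 within groups (pooled SD 0.224 in log2 units, against a median of 0.0515 over the 36 and 0.0703 over all tested features), followed by COX5B (0.155) and ATP5D (0.154). With intervals from -0.57 to 0.15 against sgRNA, these libraries could not show a change in COX8A of the size seen in its partners.

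In complex V, the catalytic head, the stator and the membrane part all held lower RNAs. Of the 5 genes of the head and central stalk (F1), 4 fell in both comparisons. ATP5C1, the rotating gamma subunit, stood at 237 and 243 FPKM with P4P6, 286 and 281 with sgRNA, 287 and 289.9 with TOP1, 269 and 254 with INT and 267 and 269.9 in CasVP. Its P4P6 libraries were the 2 lowest and sgRNA and TOP1 the 4 highest, and the log2 difference was -0.24 (SE 0.04, adjusted p = 0.0231) against sgRNA and -0.26 (SE 0.04, adjusted p = 0.0101) against TOP1. ATP5B, the catalytic beta subunit, stood at 515 and 509 FPKM with P4P6, 588 and 589 with sgRNA, 573 and 578 with TOP1, 559 and 536 with INT and 542 and 551 in CasVP. ATP5A1, the alpha subunit, stood at 287 and 314 FPKM with P4P6, 343 and 347 with sgRNA, 343 and 347 with TOP1, 317 and 316 with INT and 329 and 338 in CasVP. ATP5E, the epsilon subunit and the most abundant RNA of complex V, stood at 559.9 and 541 FPKM with P4P6, 688 and 660.1 with sgRNA, 681 and 635 with TOP1, 613 and 604 with INT and 615 and 634 in CasVP. All 3 had their lowest 2 libraries in P4P6, with log2 differences against sgRNA of -0.20, -0.20 and -0.29. ATP5D, the delta subunit, was the exception, at 62.7 and 52.9 FPKM with P4P6, 52.2 and 56.1 with sgRNA, 55.8 and 45.6 with TOP1, 47.8 and 58.8 with INT and 49.4 and 49.5 in CasVP. Its highest library was P4P6 library 0 and its lowest TOP1 library 1. P4P6 overlapped sgRNA and TOP1 and lay above both CasVP libraries, and the estimates were 0.09 (95% interval -0.17 to 0.34) and 0.19 (-0.07 to 0.44).

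Of the 4 genes of the peripheral stalk, which holds the head still against rotation, 3 fell in both comparisons. ATP5F1 had the smallest F-test p of all 36 genes and stood at 156 and 159 FPKM with P4P6, 191 and 184 with sgRNA, 190.4 and 193 with TOP1, 180.1 and 169 with INT and 186 and 181 in CasVP. Its libraries separated into P4P6 below all others and the 4 sgRNA and TOP1 libraries at the upper end, overlapping CasVP, with log2 differences of -0.25 (SE 0.05, adjusted p = 0.0231) against sgRNA and -0.29 (SE 0.05, adjusted p = 0.0101) against TOP1. ATP5H stood at 207 and 212 FPKM with P4P6, 252 and 247 with sgRNA, 254 and 266 with TOP1, 241 and 222 with INT and 238 and 249 in CasVP. ATP5O, the oligomycin-sensitivity protein, stood at 482 and 444 FPKM with P4P6, 555 and 545 with sgRNA, 539 and 546 with TOP1, 524 and 498 with INT and 529 and 527 in CasVP. Both had P4P6 lowest, and gave -0.25 and -0.25 against sgRNA and -0.31 and -0.23 against TOP1. ATP5J, coupling factor F6, lay between 139.6 and 153 FPKM and did not pass, at -0.08 and -0.08.

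In the membrane part, the c-ring gene ATP5G2 stood at 289.8 and 281 FPKM with P4P6, 333 and 334 with sgRNA, 319 and 337 with TOP1, 312 and 302 with INT and 318 and 317 in CasVP, and ATP5G3 at 96.9 and 104 FPKM with P4P6, 117 and 121 with sgRNA, 116 and 119 with TOP1, 112 and 109.9 with INT and 112 and 113 in CasVP. ATP5G1 stood at 118 and 117 FPKM with P4P6, 136 and 129 with sgRNA, 128 and 138 with TOP1, 126 and 126 with INT and 129 and 135 in CasVP. All 3 were lowest in both P4P6 libraries; ATP5G2 (-0.22 and -0.20) and ATP5G3 (-0.24 and -0.23) passed against sgRNA and TOP1, and ATP5G1 (-0.17 (SE 0.05, adjusted p = 0.0511) and -0.17 (SE 0.05, adjusted p = 0.0388)) passed against TOP1. ATP5I, subunit e, which joins ATP synthase dimers, stood at 395 and 388 FPKM with P4P6, 517 and 477 with sgRNA, 462 and 484 with TOP1, 472 and 415 with INT and 448 and 452 in CasVP. It had the largest estimate of the 36 against sgRNA, -0.34 (SE 0.06, adjusted p = 0.0243), and -0.27 against TOP1. ATP5L, subunit g, stood at 114 and 110.4 FPKM with P4P6, 129.9 and 127 with sgRNA, 130.0 and 134 with TOP1, 122 and 117 with INT and 124 and 129.7 in CasVP, and ATP5J2, subunit f, at 304 and 314 FPKM with P4P6, 338 and 349 with sgRNA, 340.0 and 377 with TOP1, 355 and 328 with INT and 333 and 341 in CasVP. Both had P4P6 lowest; ATP5L passed in both comparisons (-0.19 and -0.23), and ATP5J2 against TOP1 (-0.21 (SE 0.06, adjusted p = 0.0333)) and not against sgRNA (-0.15 (SE 0.06, adjusted p = 0.118)). Neither ATP5S (-0.13 and -0.19) nor ATP5SL (-0.00 and -0.02), which are not subunits, passed.

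The neighbours COX4I1 and COX4NB, which start from the same stretch of DNA, were set side by side. COX4NB stood at 27.8 and 23.6 FPKM with P4P6, 25.2 and 26.7 with sgRNA, 27.0 and 26.6 with TOP1, 23.9 and 23.8 with INT and 27.3 and 25.8 in CasVP. COX4I1 was lowest in both P4P6 libraries and passed against sgRNA and TOP1, while COX4NB had its highest library (27.8 FPKM) and its lowest (23.6 FPKM) both in P4P6 and gave -0.02 (95% interval -0.18 to 0.14) and -0.06 (-0.22 to 0.10). The difference between these neighbours was not tested. Among the 16 genes with a promoter that were lower in both comparisons, 9 held an NRF1 or ETS string, and among the 10 lower in neither, 8 did.

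The pattern by library was followed as the median deviation of the 36 genes from their own means. It was -0.12 in both P4P6 libraries, 0.08 and 0.07 with sgRNA, 0.07 and 0.09 with TOP1, 0.01 and -0.06 with INT, and -0.00 and 0.02 in CasVP. P4P6 was thus lowest, and INT library 1 lay between P4P6 and the other libraries. The higher position of sgRNA and TOP1 than of CasVP was lost under quantile normalization, where the median of the 36 genes was -0.00492 for sgRNA against CasVP and -0.00231 for TOP1 against CasVP. The group mean was lowest in P4P6 for 30 of the 36 genes (6 of 7, 8 of 12 and 16 of 17 by complex as named), lowest in CasVP for 4 and in INT for 2. This count was not taken over all tested features. Of 732 other tested features at or above 100 FPKM, 649 had an estimate below 0 for P4P6 against sgRNA. Against TOP1, INT and CasVP, 642, 626 and 611 of them did. In 21 genes the P4P6 libraries were the 2 lowest of 10, which held for 11.6% of all tested features. Tracked over the 10 libraries, 23 of the 36 genes had a Pearson r over 0.8 with the median of the other genes, led by ATP5C1 (0.991), ATP5B (0.972) and COX7A2 (0.966), 5 had an r of 0.5 to 0.8 and 8 an r under 0.5, down to COX8A (0.163), ATP5SL (0.114) and ATP5D (-0.493). These r describe 10 libraries that share 5 groups and each library's scaling. No such r was computed for features outside the 36. The median deviation of the 732 other features at or above 100 FPKM took a similar course. It was -0.10 and -0.12 in P4P6, 0.07 and 0.06 with sgRNA, 0.08 and 0.07 with TOP1, and -0.06 in INT library 1.

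**Figure D3:**
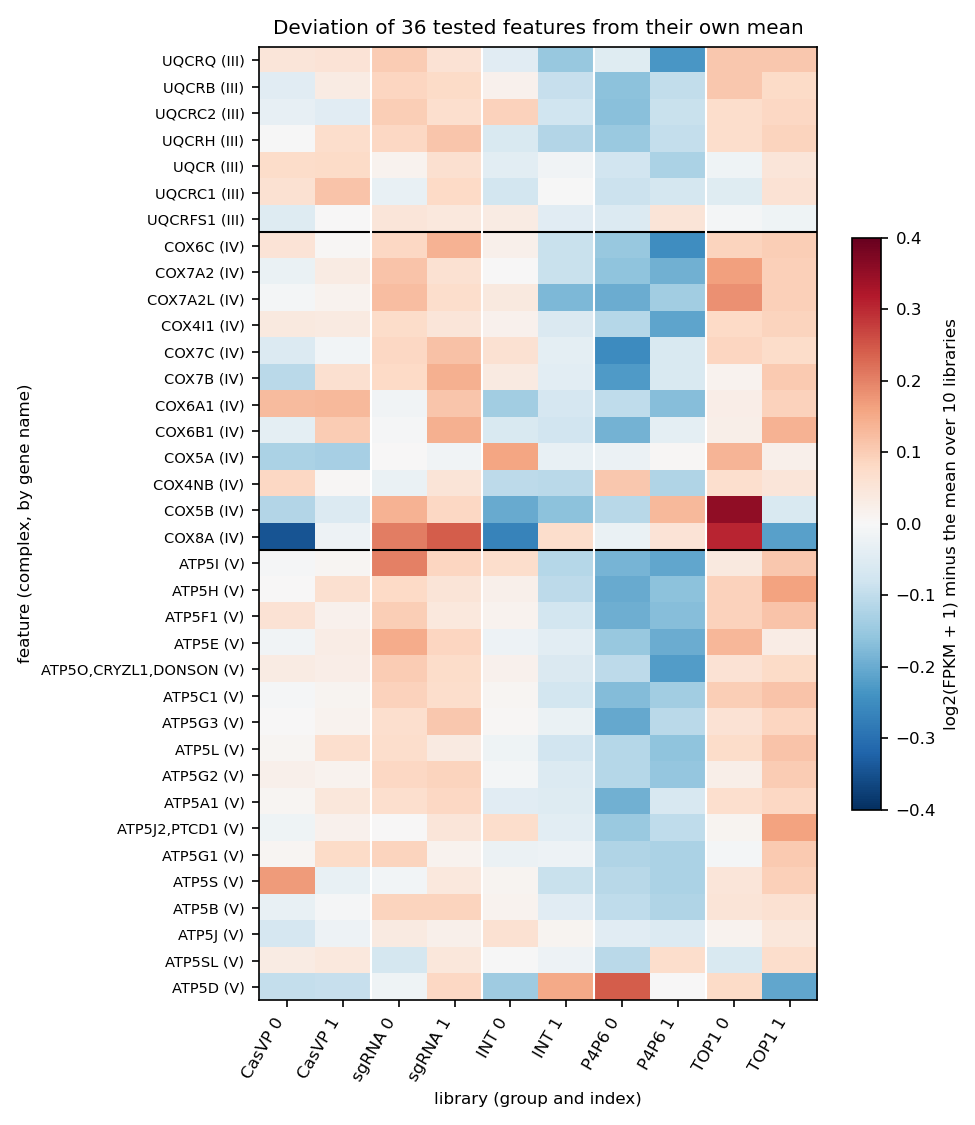
Deviation of log2(FPKM + 1) from each gene's mean over 10 libraries (colour), for the 36 tested genes (rows, by complex as named) and the libraries by group (columns). The P4P6 columns are mostly blue and the sgRNA and TOP1 columns mostly red; COX8A, COX5B and ATP5D differ between libraries of one group.

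Other abundant RNAs were also lower with P4P6. Among 732 tested features with a mean of at least 100 FPKM that are not among the 36 genes, the median log2 difference was -0.17 against sgRNA with 305 (41.7%) called lower, and -0.19 against TOP1 with 389 (53.1%). The 27 respiratory genes at or above 100 FPKM had medians of -0.22 and -0.20, with 18 (66.7%) and 20 (74.1%) called lower. Below 100 FPKM, the 9 tested genes, 6 subunits and 3 that only share a stem, had medians of -0.13 and -0.12. Of these 9, 3 (33.3%), all subunits, were called lower in each comparison. The 10806 other features below 100 FPKM had medians of 0.00 and -0.00, with 4.66 and 8.42% called lower. These sets are not matched for level: the 6 subunits averaged 50.3 to 76.3 FPKM, and the median of all tested features was 14.4 FPKM. The share of the 42 genes in the summed FPKM did not set P4P6 apart. It was 1.62% in P4P6 library 0, the lowest, 1.70% in P4P6 library 1, 1.68 and 1.74% in CasVP, 1.69% in both INT libraries, 1.71 and 1.73% with TOP1, and 1.72 and 1.75% with sgRNA. The part of summed FPKM, depth and scaling in the lower values was not tested.

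**Figure D4:**
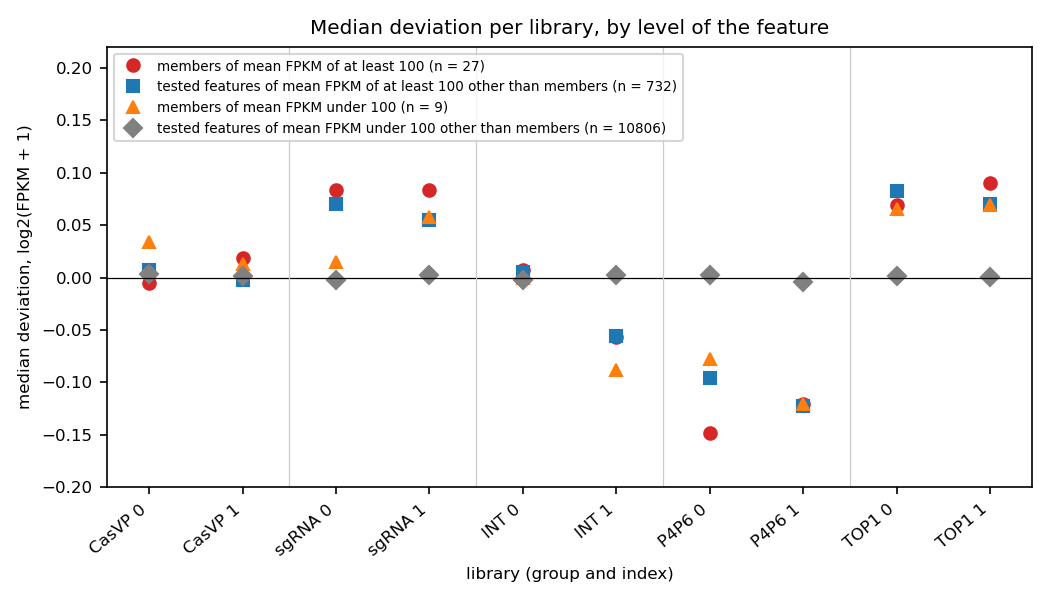
Median deviation of log2(FPKM + 1) from each feature's mean, in each of the 10 libraries, for respiratory genes and other tested features at or above and below 100 FPKM. Respiratory genes and other features at or above 100 FPKM follow one another from library to library and are lowest in both P4P6 libraries. For the 9 tested genes below 100 FPKM, 3 of them not subunits, INT library 1 (-0.09) lies below P4P6 library 0 (-0.08). The other features below 100 FPKM stay near 0 in every library.

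Within the 36 genes, the size of the difference also varied with base composition. Protein-coding transcripts in GENCODE v29 were found for all 36, with a median length of 672 bases and 48.6% GC, against 1866 bases and 49.8% over the tested features that had one (89.3%). Across the 36 genes, Pearson's r between transcript GC and the log2 difference of P4P6 was 0.52 against sgRNA and 0.62 against TOP1, and r with transcript length was 0.27 and 0.28; genes are not independent replicates, and all share the same libraries. The 8 genes of at least 55% GC had a median of -0.16 and -0.10, and the 28 below had -0.21 and -0.22. ATP5D, at 68.7% the gene of highest GC, had the highest estimate in both comparisons. It also varied among the most within groups (pooled SD 0.154), and r was not computed without it. Abundant features outside the 36 showed the same order: 174 of at least 55% GC had medians of -0.12 and -0.11, and 513 below had -0.18 and -0.20. The 349 abundant features with transcripts under 1000 bases, like most respiratory genes, had medians of -0.20 and -0.21. The 338 with transcripts of 1000 bases or more had -0.15 and -0.16. The part of GC and length in the result was not tested.

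**Figure D5:**
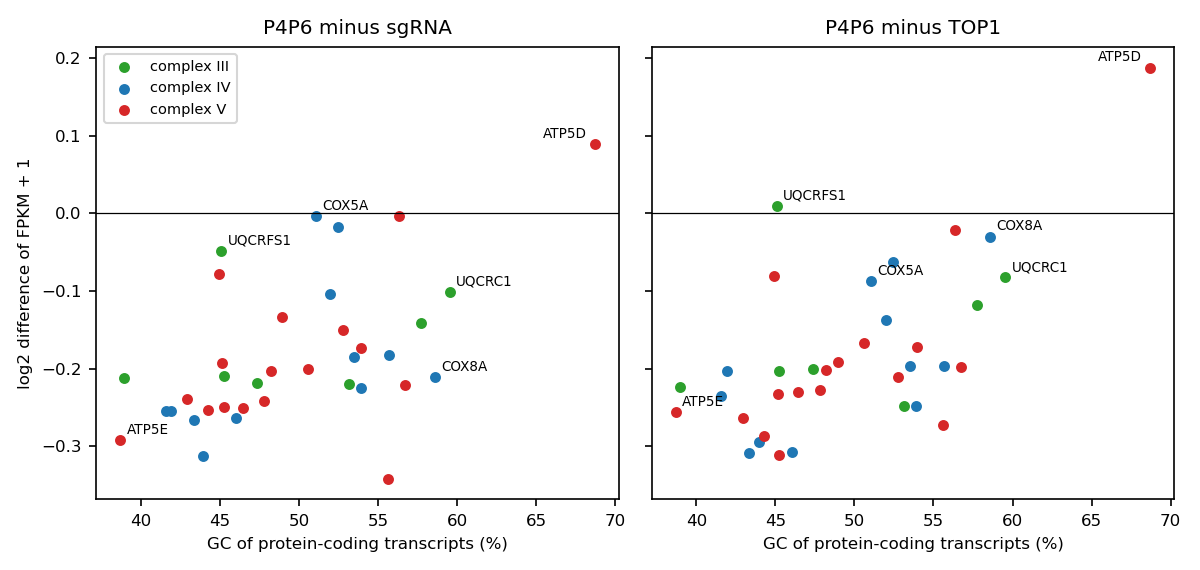
Log2 difference of FPKM + 1 for P4P6 minus sgRNA and P4P6 minus TOP1 (y axes) against the GC content of protein-coding transcripts in percent (x axes), for the 36 tested genes coloured by complex. ATP5D, at 68.7% GC, lies above 0 in both panels, and ATP5E, at 38.7%, lies among the lower genes.

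Against CasVP, no respiratory gene passed in any comparison of 1 guide (limma, 0 of 36 with each guide; 0.0173% of all tested features changed with sgRNA, 0.0173% with INT, 0.00864% with P4P6 and 0.00864% with TOP1). With P4P6, 31 of 36 estimates were below 0 (53.9% of all tested features), with a median of -0.16, and 22 genes had an unadjusted p under 0.05 (22.2% of all tested features); the smallest adjusted p was 0.0750, for ATP5F1 (-0.22, SE 0.05) and COX6A1 (-0.26, SE 0.06). P4P6 libraries lay below both CasVP libraries in 27 genes, as they did in 28.1% of all tested features. Without P4P6 library 0, 6 genes were called lower than in CasVP, where 534 of the 11574 tested features were lower and 230 higher. With sgRNA, 6 of 36 estimates were below 0 (49.5% of all tested features), with a median of 0.07, and 2 genes had an unadjusted p under 0.05 (6.02%). With TOP1, 4 estimates were below 0 (49.1%), with a median of 0.06, and 3 genes had an unadjusted p under 0.05 (9.22%). Under quantile normalization both medians were -0.00, so no direction is given for them. COX8A had the largest of these estimates, 0.41 with sgRNA (SE 0.16, adjusted p = 0.791). With INT, 26 estimates were below 0 (50.4% of all tested features), with a median of -0.05, and 6 genes had an unadjusted p under 0.05 (8.86%). Without INT library 0 that median was -0.08, and without INT library 1 it was -0.02. The 732 other features at or above 100 FPKM had medians of 0.06 with sgRNA, 0.07 with TOP1, -0.03 with INT and -0.11 with P4P6. Of their estimates, 123, 132, 465 and 611 were below 0, in the same order.

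INT lay between P4P6 and the other 2 guides. No gene passed for INT against sgRNA (0.00864% of all tested features changed), INT against TOP1 (0%) or P4P6 against INT (0.00864%). Their medians were -0.11, -0.11 and -0.09, with 33, 33 and 31 of 36 estimates below 0 (51.0, 50.8 and 54.1% of all tested features), and 16, 15 and 15 genes at an unadjusted p under 0.05 (8.77, 14.2 and 11.2% of all tested features). The 732 other features at or above 100 FPKM had medians of -0.09, -0.11 and -0.08. Of their estimates, 643, 627 and 626 were below 0. UQCRH had the smallest p of the 36 for INT against both other guides, with -0.19 (SE 0.05, adjusted p = 0.555) against sgRNA and -0.17 (SE 0.05, adjusted p = 0.275) against TOP1. The libraries of INT differed from each other: library 0 was higher than library 1 in 29 of 36 genes, by a median of 0.07. This count was not taken over other features. The median deviation of the 732 other features at or above 100 FPKM was 0.005 in INT library 0 and -0.055 in INT library 1. Over all tested features it was -0.001 and -0.002. Under quantile normalization the 3 medians of the 36 genes were -0.0294, -0.0254 and -0.0369, with 26, 23 and 25 estimates below 0. Without INT library 0 the median against sgRNA was -0.14, and without INT library 1 it was -0.08.

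A test for any difference among the 5 groups (limma's moderated F test) called 0 of the 36 genes and 0.0259% of all tested features. The smallest adjusted p was 0.0616, for ATP5F1, ATP5C1 and COX7A2, and 25 genes had an unadjusted p under 0.05, against 24.0% of all tested features. All guides together were also set against CasVP, a comparison added after the data had been seen, and no gene passed (limma, 0 of 36, where 0.0173% of all tested features did); 4 had an unadjusted p under 0.05 (7.43%) and 24 an estimate below 0 (51.9%). COX6A1 and UQCR lay below both CasVP libraries in all 8 guide libraries (2.68% of all tested features did), and COX5A above them (2.14%). Their log2 differences were -0.16 (SE 0.04, adjusted p = 0.669), -0.09 (SE 0.04, adjusted p = 0.669) and 0.16 (SE 0.05, adjusted p = 0.669).

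Genes that serve the same complexes under other names were read from lists drawn up for this purpose. Counts in these lists are to be read against the 7.17% of all tested features that were lower against sgRNA and the 11.4% against TOP1. The shares were 41.7 and 53.1% for other features at or above 100 FPKM, and 4.66 and 8.42% for those below. All listed complex II features and regulators, and most of the assembly factors, averaged below 100 FPKM. Of 6 further genes, which are subunits, cytochrome c and the ATP synthase inhibitor ATPIF1, 3 were lower than with sgRNA and 3 lower than with TOP1: NDUFA4, now counted with complex IV, at -0.24 (adjusted p = 0.0231) and -0.27 (adjusted p = 0.0101), C14orf2, a small subunit of ATP synthase, at -0.21 (adjusted p = 0.0282) and -0.18 (adjusted p = 0.0269), and CYCS, cytochrome c itself, at -0.15 (adjusted p = 0.0443) and -0.23 (adjusted p = 0.0107). CYC1, cytochrome c1 of complex III, did not pass, at -0.12 (adjusted p = 0.272) and -0.12 (adjusted p = 0.241). Of 25 assembly factors, 5 (20.0%) were lower against sgRNA and 7 (28.0%) against TOP1 and none higher, with medians of -0.11 and -0.12. CMC1, a chaperone of complex IV assembly, had the largest difference, -0.43 (adjusted p = 0.0221) and -0.45 (adjusted p = 0.0101), and COX17, which delivers copper to complex IV, stood at -0.25 (adjusted p = 0.0282) and -0.15 (adjusted p = 0.0884). SURF1 (-0.00 (adjusted p = 0.981) against sgRNA) and COX15 (-0.05 (adjusted p = 0.584)) were among those that did not pass.

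Of 36 complex I genes, 16 (44.4%) were lower against sgRNA and 19 (52.8%) against TOP1, near the shares of other abundant features, with medians of -0.19 and -0.18. Of 5 complex II features, SDHD alone was lower, at -0.33 (adjusted p = 0.0221) and -0.28 (adjusted p = 0.0101). Cytoplasmic ribosomal protein genes, which are short and abundant and serve no respiratory complex, were lower in 69 of 87 (79.3%) against sgRNA and 70 of 87 (80.5%) against TOP1, with medians of -0.28 and -0.29. For mitochondrial ribosomal proteins the counts were 19 (26.4%) and 29 (40.3%) of 72. Of 13 regulators of respiratory genes, TFAM, which packages mitochondrial DNA and takes part in its transcription, was lower in both comparisons, at -0.21 (adjusted p = 0.0298) and -0.27 (adjusted p = 0.0107). TFB2M was lower only against TOP1 (-0.34 (adjusted p = 0.0157)), and against sgRNA it gave -0.25 (adjusted p = 0.0594). The factors whose motifs were searched did not pass: NRF1 gave 0.04 (adjusted p = 0.682) and 0.05 (adjusted p = 0.577), GABPA -0.11 (adjusted p = 0.321) and -0.11 (adjusted p = 0.307), and YY1 0.13 (adjusted p = 0.133) and 0.13 (adjusted p = 0.117). The median of the 13 regulators was 0.00 against sgRNA and 0.05 against TOP1.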

How the data were processed

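Polyadenylated RNA of 10 HEK293FT samples was sequenced, and 1 value per feature and sample was used. The authors deposited values read here as FPKM, whose header gives no unit; per the submitters' processing notes TopHat2 2.0.13, Cuffdiff 2.2.1 and the build hg19 were used, and what each tool did, which annotation was used and how libraries were scaled to each other is not given in the sources used here. Read counts were not used here. Columns carry an index of 0 or 1 that was not matched to the replicate numbers of the labels. Of 20246 features, 945 without a name (2.31 to 2.47% of summed FPKM) were left out.

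Values were log2-transformed with a pseudocount of 1. All features averaging 1 FPKM or more (11574) entered 1 fit in limma 3.58.1 (R 4.3.3), with group means, every library and a trend of the variance with level (5 residual degrees of freedom), two-sided, adjusted by the Benjamini-Hochberg method over all tested features within each comparison. The script was tested on simulated data. The genes and lists were chosen with earlier results of these data known. Values in every library are given for genes that passed in any comparison, for the 4 genes per complex with the smallest F-test p, for isoform pairs, for the ATP5G genes and, chosen after their values were seen, for COX5A, COX5B, ATP5D and COX4NB; other genes are given by range or estimate. Alternatives were a pseudocount of 0.1, 2 other filters, scaling by median of ratios or by quantiles, no trend, the index as a replicate block, leaving out each library, and only the groups compared. Promoters came from RefSeq (GRCh38.p14), and transcript length and GC from GENCODE v29; no hg19 coordinates were used.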

Additional observations from a re-analysis of the deposited data

How the results depend on the processing

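The median of the 36 genes for P4P6 against each other group stayed below 0 under all 18 alternatives run, while the number of calls did not hold. Most of the 18 could not change that median. Only the pseudocount, the scalings and leaving out a library of a compared group could. The filters, the block, the trend, the fit of only the groups compared and the other omissions leave it as it is. Under quantile normalization the medians of the 36 genes were -0.00492 for sgRNA against CasVP (0.07 as reported), -0.0907 for P4P6 against CasVP, -0.00231 for TOP1 against CasVP (0.06 as reported), -0.0294 for INT against sgRNA, -0.0534 for P4P6 against sgRNA with 0 genes called, -0.0369 for P4P6 against INT, -0.0513 for P4P6 against TOP1 with 1 called, and -0.0254 for INT against TOP1; quantile normalization makes every library's distribution the same, and the cause of the loss was not tested. Without the intensity trend 13 genes were called for P4P6 against sgRNA, and with only the libraries of the groups compared 0 were called against sgRNA and 0 against TOP1. Leaving out 1 library at a time, the genes called for P4P6 ranged from 0 to 20 against sgRNA, from 4 to 23 against TOP1, and from 0 to 6 against CasVP, and those of the F test from 0 to 4.

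Over the same omissions the medians ranged from -0.0826 to -0.0238 for INT against CasVP, from -0.139 to -0.0755 for INT against sgRNA, from -0.127 to -0.0747 for INT against TOP1, from -0.128 to -0.0723 for P4P6 against INT, from -0.212 to -0.178 for P4P6 against sgRNA and from -0.228 to -0.178 for P4P6 against TOP1. Calls over all features moved as well: for P4P6 against sgRNA, 1331 as reported became 668 without the trend, 641 without the filter on low values, 320 and 319 without either CasVP library, 2 without P4P6 library 1, 1 without either sgRNA library and 2 with only the groups compared.

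The columns' indices were not taken as pairs, since they were not matched to the labels' numbers and not every pair of groups passed the check: differences between index 0 and index 1 correlated between groups at -0.0364 to 0.415, over 0.1 in 8 of 10 pairs of groups. With the index as a replicate block, 11 genes were called lower for P4P6 against CasVP (600 of all features) and 18 in the F test (1288 of all features), against 0 of the 36 genes in both without it (1 and 3 of all features). Depth is not given with the values used here, and 2 libraries per group limit every estimate to the spread shared by all 5 groups.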
